A study of Mus musculus with 16 samples.

Results

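The genes described here encode the nuclear subunits of oxidative phosphorylation, found by gene name on a mouse expression array. Non-control probes were taken when their name began with Nduf and a letter a, b, c, s or v (complex I), was Sdha to Sdhd (complex II), or began with Uqcr (complex III), Cox4 to Cox8 (complex IV) or Atp5 (complex V). The rule found 124 of 55681 non-control probes, for 85 genes, and used no measured value. A total of 83 of these genes were tested among 22644 genes. Cox7b2 and Cox8c were not tested, since they were above background on no full group of arrays. Complex I held 37 tested genes, complex II 4, complex III 8, complex IV 16 and complex V 18.

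Complexes I to IV pass electrons from NADH and succinate to oxygen in the inner mitochondrial membrane and pump protons (complex II passes electrons without pumping), and complex V uses the proton gradient to make ATP. Most subunits are encoded in the nucleus and imported, while a small core of complexes I, III, IV and V is encoded by mitochondrial DNA. Several complex IV subunits come as a widely expressed form and a form best known from heart and skeletal muscle or from testis or lung. The rule follows names, so it takes in Ndufa4, now counted as a complex IV subunit, its hypoxia-linked relative Ndufa4l2, the supercomplex factor Cox7a2l, the pseudogene Atp5c1-ps, and Atp5s and Atp5sl, which are not classical subunits.

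RNA came from fibroblasts grown out of mouse lung as a primary culture and split 3 or more times, and was taken 48 hours after transfection. The 4 groups of 4 one-colour (Cy3) arrays were compared: a scrambled control siRNA (scr) and siRNAs against Lox (siLox), Loxl1 (siLoxl1) and Loxl2 (siLoxl2). These genes encode lysyl oxidases, enzymes that prepare collagen and elastin for cross-linking. Groups follow the sample labels, which describe siRNAs, although the title of the series names exogenous expression. The labels name neither mouse strain nor age, and nothing in them says that the 4 arrays of a group came from separate animals or cultures, so p-values measure the spread between arrays, which may be technical.

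The scr and siLox arrays lay on slide 1 and the siLoxl1 and siLoxl2 arrays on slide 2. Groups of a slide also differed by slide row, so row and siRNA cannot be told apart within a slide, nor slide and siRNA between slides. The share of spots well above background was 49.2% to 52.3% on slide 1 and 60.4% to 63.1% on slide 2. Lox in siLox stood at 13.2% of scr, and Loxl1 in siLoxl1 at 44.9% of siLoxl2. Loxl2, the third target, did not pass between siLoxl1 and siLoxl2 (siLoxl1 at 123% of siLoxl2, adjusted p = 0.0551, limma), and against scr it stood at 47.8% in siLoxl2, 59.0% in siLoxl1 and 61.0% in siLox, while Loxl1 in siLox stood at 71.3% of scr. All 10 fibroblast markers were above background on all arrays, and so were 13 of 14 leukocyte and all 6 mesothelial markers. Of 10 epithelial markers 4 were above background on all scr arrays and 3 on all siLox arrays, and 6 were above it on none. The mean fibroblast marker level ran from 5.95 to 6.25 in scr and from 5.40 to 5.92 in siLox, the leukocyte level from -0.47 to 0.41 and from 0.21 to 0.51, the epithelial level from -1.12 to -0.91 and from -1.25 to -1.05, the endothelial level from -3.17 to -2.95 and from -3.22 to -3.07, and the mesothelial level from 1.06 to 1.26 and from 0.96 to 1.04. Each mean covers the tested markers of its list, and the endothelial mean includes Tek, above background on 0 scr and 0 siLox arrays. All 10 fibroblast markers had a lower mean in siLox than in scr, with a median difference of -0.45. Of these, 5 were called lower and 0 higher in limma, where 13.5% and 11.5% of all genes were. Markers of the other lists went both ways. Of 6 tested mesothelial markers 1 rose in siLox and 4 fell, where 11.5% of all genes rose and 13.5% fell. The list means moved beside the differences described next, and their part in them was not tested. In bulk RNA, fewer cells of a type and less RNA per cell cannot be told apart.

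Levels are log2 intensities relative to the 75th percentile of each array, and differences are on the log2 scale. They compare arrays for 1 probe, not probes with each other. The subunit genes were steady among arrays of a group: their median SD was 0.07 in scr, 0.06 in siLox, 0.06 in siLoxl1 and 0.06 in siLoxl2, against 0.17, 0.13, 0.09 and 0.09 for all genes tested. Of the 83 genes, 82 were well above background on all 16 arrays. Cox8b, a muscle-type complex IV subunit, was above background on 0 scr, 0 siLox, 4 siLoxl1 and 3 siLoxl2 arrays.

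The first comparison asked how the subunit genes differed between cells with the Lox siRNA and control cells. In siLox, 13 subunit genes fell and 2 rose among 83, with adjusted p under 0.05 in limma over 22644 genes. The same test called 25% of all genes, 13.5% lower and 11.5% higher, against 18.1% of the subunit genes, 15.7% lower and 2.41% higher. The share called in both directions together was below that of genes at large, while the share called lower was not. The sign was negative for 72 of 83 subunit genes, with a median of -0.12 against -0.05 for all genes. For 36 subunit genes each siLox array lay below each scr array, and for 3 each lay above (47.0% in all). Of all genes, 16.9% and 13.7% did so (30.6% in all). By complex, 7 of 37 genes fell and 1 rose in complex I, 0 of 4 passed in complex II (1 lower at an unadjusted p under 0.05 in limma), 1 of 8 fell in complex III, 1 of 16 fell in complex IV, and 4 of 18 fell and 1 rose in complex V. The median differences of the 5 complexes were close together, from -0.11 in complex III to -0.14 in complex I.

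**Figure D1:**
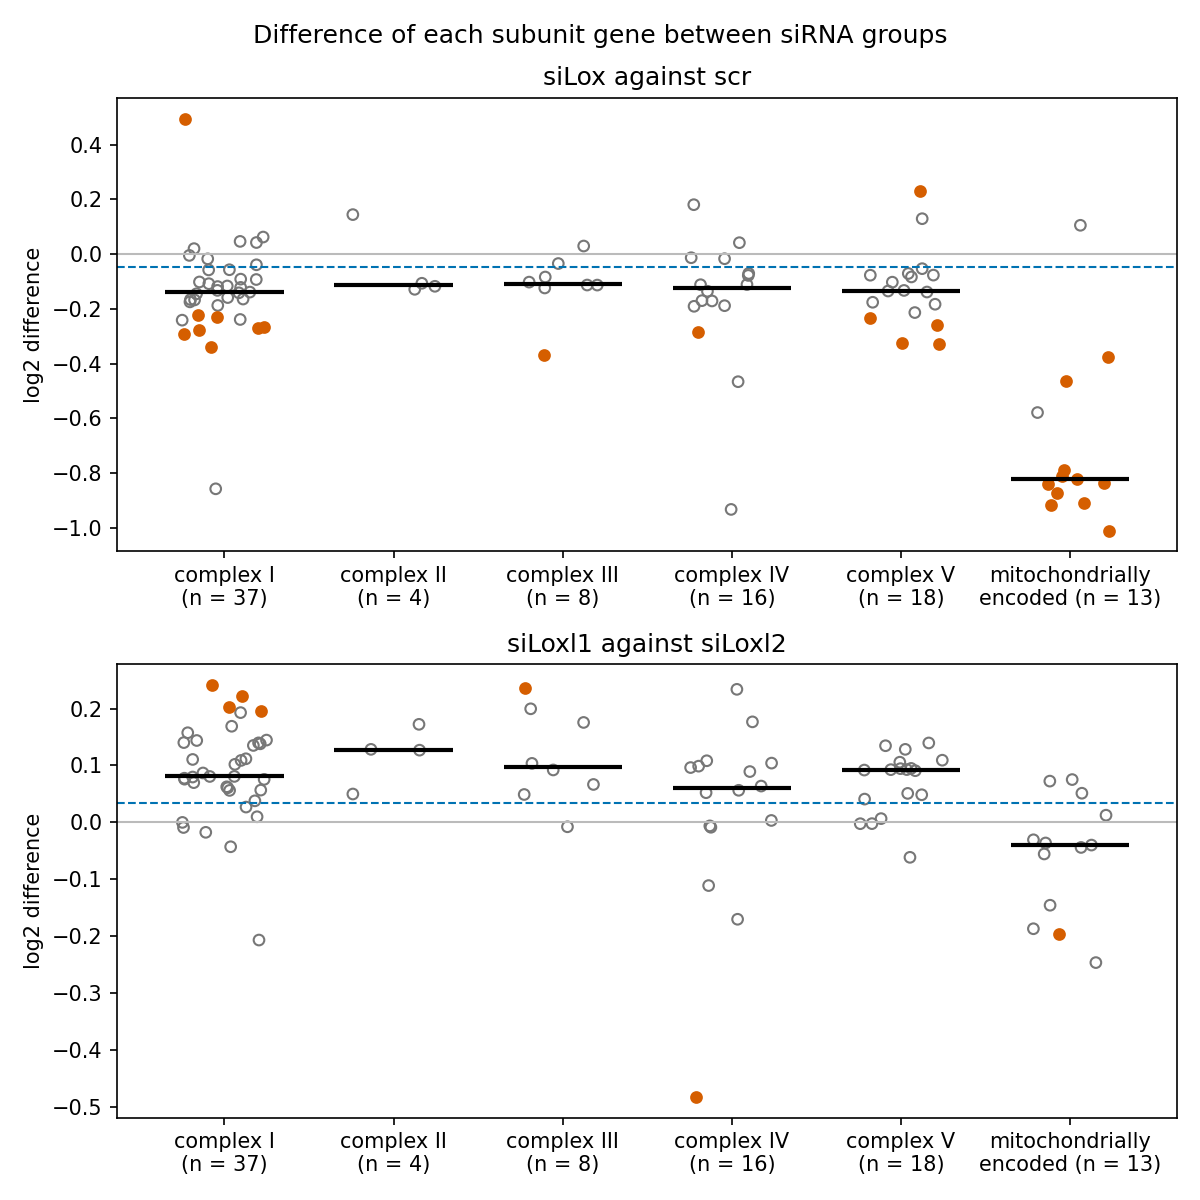
Log2 difference of each tested subunit gene (y axis) by complex and for the mitochondrially encoded subunits (x axis), siLox against scr above and siLoxl1 against siLoxl2 below; filled points have an adjusted p under 0.05 in limma, black bars are medians and the dashed line is the median of all 22644 genes. In the upper panel the mitochondrially encoded genes lie around -0.82, and the nuclear complexes between -0.11 and -0.14 at the median.

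The largest fall among the called genes was in Uqcr11, a small complex III subunit (probe at chr10:79865745-79865804, mm9). It read 5.65, 5.63, 5.48 and 5.38 in scr and 4.98, 5.24, 5.19 and 5.26 in siLox. The groups did not overlap, and Uqcr11 fell by 0.37 (SE 0.09, adjusted p = 0.0280, limma), to 77.3% of scr. Its call was lost without any 1 of scr arrays 1, 2 and 3 or siLox arrays 1, 2 and 3, where the difference ran from -0.39 to -0.31. A dimmer second probe, at chr10:79865737-79865796, differed by -0.26 and did not pass (adjusted p = 0.0635 over probes, limma).

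Ndufa4 (probe at chr6:11850423-11850482, mm9) read 5.17, 5.03, 5.03 and 4.88 in scr and 4.65, 4.69, 4.67 and 4.74 in siLox. It fell by 0.34 (SE 0.07, adjusted p = 0.0172, limma), with no overlap. Atp5c1, the gamma subunit that forms the rotating stalk of complex V, read 6.12, 6.17, 5.99 and 6.01 in scr and 5.68, 5.78, 5.71 and 5.81 in siLox. It fell by 0.33 (SE 0.06, adjusted p = 0.0155, limma). The Atp5c1-ps probe fell by the same amount, 0.33, and since a pseudogene can share sequence with its parent these probes are uncertain as separate genes. The other called falls were in Ndufb10 (-0.29), Ndufb5 (-0.28), Ndufb7 (-0.27), Ndufc2 (-0.27), Ndufb2 (-0.23) and Ndufa3 (-0.22), accessory subunits of complex I. In complex IV and V they were in Cox7a2l (-0.28), the peripheral stalk subunit Atp5j (-0.26) and Atp5g1 (-0.24), 1 of 3 genes for the same c-ring protein.

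Atp5l, subunit g of the membrane part of complex V, rose. It read 6.37, 6.15, 6.22 and 6.27 in scr and 6.47, 6.43, 6.50 and 6.53 in siLox, a difference of 0.23 (SE 0.06, adjusted p = 0.0367, limma). The groups did not overlap, but the call was lost without scr array 2 or 3 or any siLox array, at 0.20 to 0.25.

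The core catalytic genes named here showed small differences that did not pass on the brightest probe. Ndufv1, the NADH-binding subunit of complex I, differed by -0.12 (adjusted p = 0.108) and Ndufs1, its iron-sulfur neighbour, by -0.00495 (95% interval -0.15 to 0.14). In complex II, Sdha, the flavoprotein, differed by -0.11, the iron-sulfur subunit Sdhb by 0.14 and the membrane anchors Sdhc and Sdhd by -0.13 and -0.12, with adjusted p of 0.0895 to 0.187 in limma. A dimmer second probe of Sdhb rose by 0.26 (adjusted p = 0.0408 over probes, limma), so the call of Sdhb depends on its probe. The Rieske protein Uqcrfs1 and the core protein Uqcrc1 of complex III differed by -0.11 and -0.10. In complex V, Atp5b, the catalytic beta subunit, differed by -0.21 (adjusted p = 0.0666) and Atp5a1, the alpha subunit, by -0.13 (adjusted p = 0.0987), each with no overlap between the groups.

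Of the complex IV isoforms, the widely expressed Cox4i1, Cox5a, Cox6a1, Cox7a2 and Cox8a differed by -0.11, -0.11, -0.17, -0.07 and -0.19, and the adjusted p of each was at least 0.0617 (limma). Cox7a1, the muscle form of subunit 7a, differed by 0.04 (95% interval -0.23 to 0.31), and Cox4i2, a lung-rich form of subunit 4, by -0.01 (-0.27 to 0.25). Cox6a2 and Ndufa4l2 varied more among arrays. Cox6a2, the muscle form of subunit 6a (probe at chr7:135349160-135349219, mm9), read 0.62, 0.40, 0.34 and -0.27 in scr and -1.14, -0.96, -0.62 and 0.07 in siLox. Array 4 was the lowest in scr and the highest in siLox, the groups overlapped there, and the difference of -0.93 missed the threshold (SE 0.29, adjusted p = 0.0528, limma). Without array 4 of both groups it was -1.36. Those arrays lay nearest the other group, so a larger difference follows from leaving them out and adds no support. Ndufa4l2 (probe at chr10:126954149-126954208, mm9) read 1.07, 0.77, 0.59 and -0.19 in scr and -1.14, -0.87, 0.03 and 0.79 in siLox, with the same array 4 at the ends. Its difference was -0.86 (SE 0.46, adjusted p = 0.194, limma). Without array 4 of both groups it was -1.47, where the larger size again follows from that choice of arrays.

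The number of subunit genes called depended on single arrays. From 15 it went to 6, 4 and 3 without siLox array 1, 2 or 3, and to 5 and 4 without scr array 2 or 3, while it was 15 without siLox array 4, 11 without scr array 1 and 20 without scr array 4. siLox array 1 held the lowest siLox value for 61 of the 83 genes, and without it the median was -0.10.

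**Figure D2:**
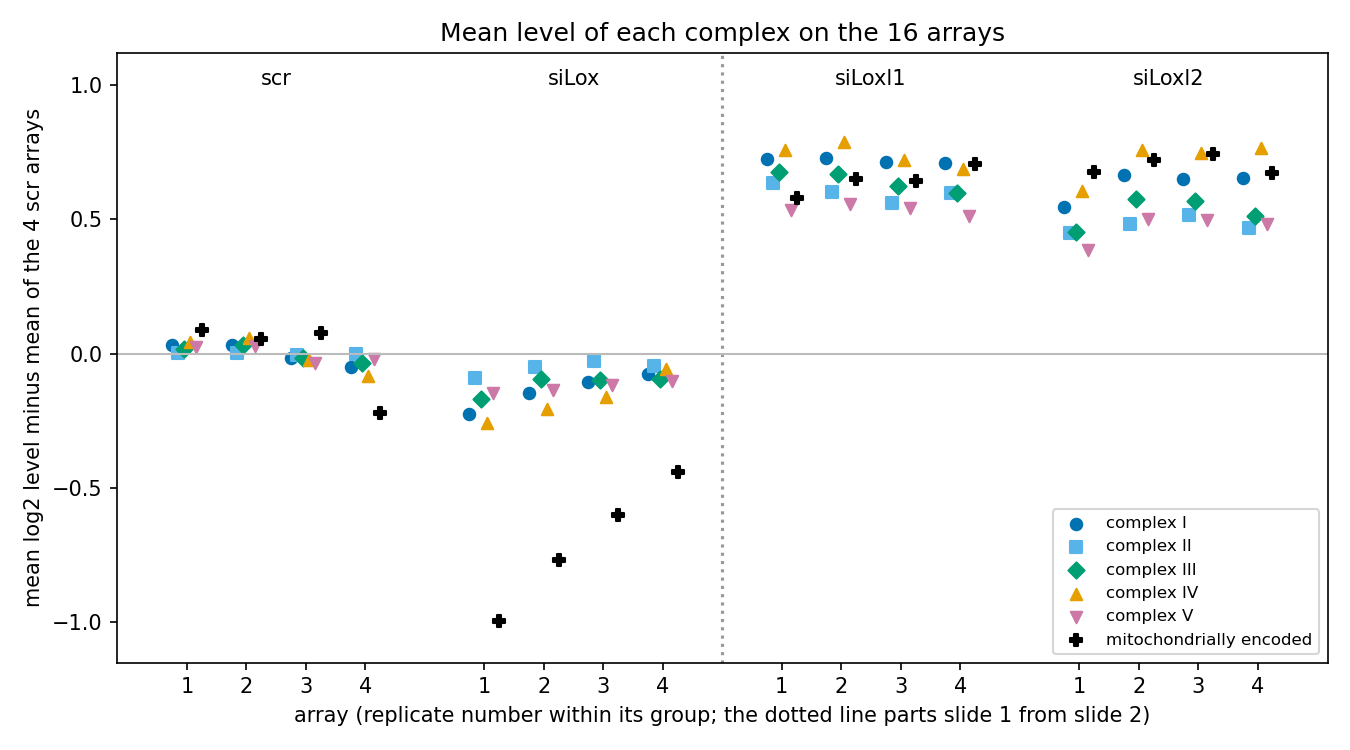
Mean log2 level of the tested genes of each complex and of the 13 mitochondrially encoded genes on each of the 16 arrays, minus the mean of the 4 scr arrays (y axis); the x axis gives the array of each group, and the dotted line parts the slides. Nuclear means sit just below 0 in siLox, the mitochondrially encoded mean reaches lowest on siLox array 1, and slide 2 lies above slide 1 for each complex.

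The 13 subunits encoded by mitochondrial DNA were not members by name but belong to the same complexes, and they differed by more. Of these 13 genes, 11 fell in siLox, 0 rose in limma (0 also at an unadjusted p under 0.05) and 2 did not pass. Their median was -0.82, against -0.05 for all genes, of which 13.5% were called lower and 11.5% higher. Most of the 13 genes are transcribed from one strand as a long precursor, while ND6 lies on the other strand. Positions and probe sequences are shown for 3 of them because they span the range of differences, ND4L with the largest fall, COX2 with the smallest called fall, and ND6 without one. The sequences are the deposited probes, 5′ to 3′, in mm9.

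ND4L (chrM:10114-10173, plus strand): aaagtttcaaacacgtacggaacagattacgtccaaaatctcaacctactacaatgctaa
COX2 (chrM:7619-7678, plus strand): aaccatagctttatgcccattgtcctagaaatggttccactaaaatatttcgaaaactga
ND6 (chrM:13552-13611, minus strand): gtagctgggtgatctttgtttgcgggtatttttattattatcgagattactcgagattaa

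ND4L, a complex I subunit, read 4.78, 4.69, 4.84 and 4.34 in scr and 3.34, 3.58, 3.76 and 3.92 in siLox. It fell by 1.01 (SE 0.16, adjusted p = 0.00869, limma), to 49.6% of scr, with no overlap. The complex I genes ND1, ND2, ND3, ND4 and ND5 fell by 0.87, 0.92, 0.84, 0.79 and 0.91. The deposited position of the ND3 probe is on chromosome 1, at chr1:24619613-24619672, not on the mitochondrial genome, and its reading may hold RNA of that locus.

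CYTB, the mitochondrial subunit of complex III, fell by 0.82 (adjusted p = 0.0125, limma). ATP6 and ATP8, which form part of the complex V membrane domain, fell by 0.81 and 0.84. The complex IV genes COX2 and COX3 fell by 0.38 and 0.47, to 77.0% and 72.4% of scr. COX1 read 7.68, 8.48, 8.03 and 8.39 in scr and 6.37, 7.68, 8.03 and 8.18 in siLox. Array 1 was the lowest in both groups, the groups overlapped, and its difference of -0.58 did not pass (SE 0.40, adjusted p = 0.303). ND6 read 2.54, 2.65, 2.56 and 2.72 in scr and 2.47, 2.59, 2.96 and 2.86 in siLox, a difference of 0.11 that did not pass (adjusted p = 0.524, limma).

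**Figure D3:**
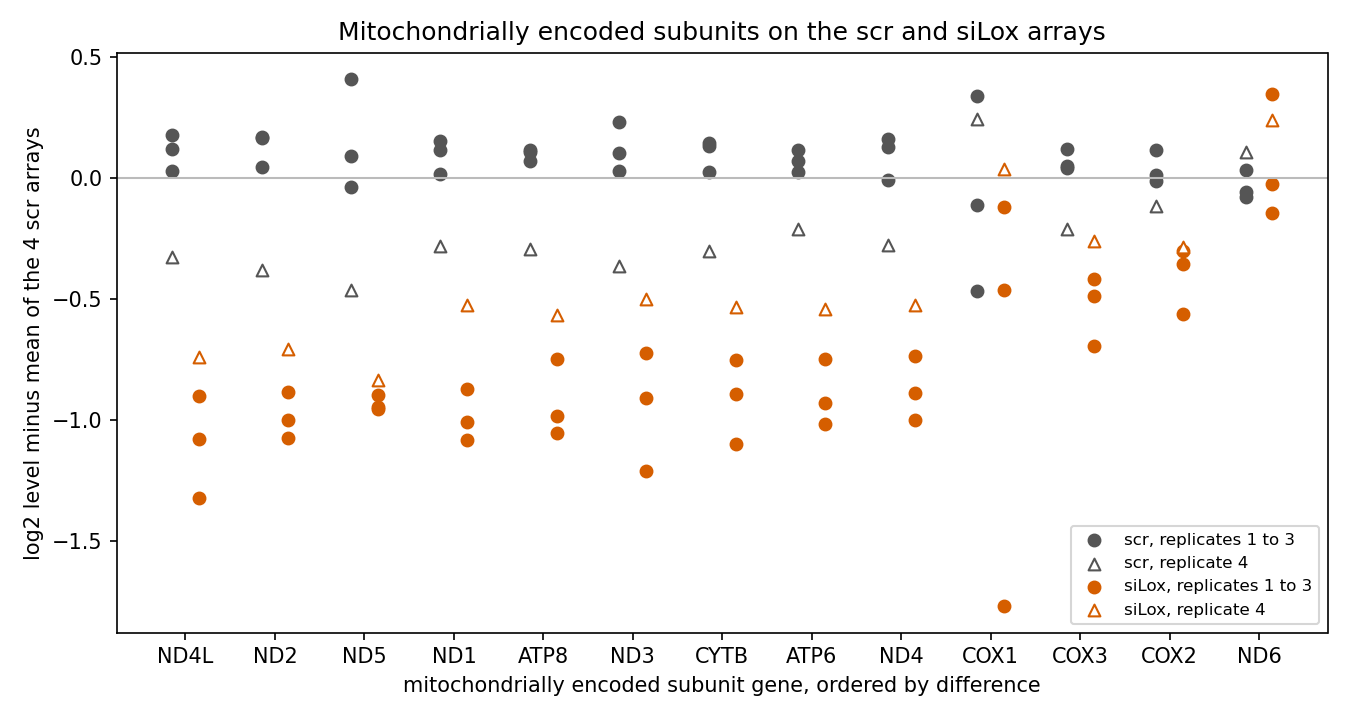
Log2 level of the 13 mitochondrially encoded subunit genes on the scr and siLox arrays, minus the mean of the 4 scr arrays (y axis), ordered by difference (x axis); grey is scr, orange is siLox, and open triangles are array 4 of each group. For 11 genes the groups do not overlap, COX1 and ND6 overlap, and array 4 of the groups lies close together for most genes.

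Array 4 was the lowest scr array for each of the 11 genes that fell, and array 4 was also the highest siLox array for each of them. The mean over the 13 genes was 5.48, 5.45, 5.47 and 5.17 on the scr arrays and 4.39, 4.62, 4.79 and 4.95 on the siLox arrays, so that the groups stayed apart. Without array 4 of both groups the median was -1.02, a larger fall that follows from leaving out the arrays nearest the other group. Over all arrays left out singly, between 8 and 11 fell. The nuclear subunits moved less on the same arrays: their mean was 4.92, 4.92, 4.87 and 4.84 in scr and 4.69, 4.74, 4.78 and 4.81 in siLox. No test was made on these means.

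Other genes of the pathway were followed by lists. Of 43 tested assembly factors, which build the complexes but are not part of them, 9 rose and 1 fell in siLox. Of all genes 25% were called, 11.5% higher and 13.5% lower, so the list as a whole was not called more often than genes at large. Sdhaf1, which helps insert iron-sulfur clusters into complex II, rose by 0.94 (adjusted p = 0.00571, limma) and Ttc19, a complex III factor, by 0.78 (adjusted p = 0.00102). Ndufaf3, a complex I factor, fell by 0.51. The list's median was 0.05, against -0.05 for all genes and -0.12 for the subunits. Of 24 regulators of mitochondrial biogenesis, 4 rose and 0 fell by limma (8 and 0 at an unadjusted p under 0.05), beside 11.5% and 13.5% of all genes: Myc by 0.60, Nfe2l2 by 0.46, Yy1 by 0.28 and Sirt3 by 0.24. The transcription factor Nrf1 differed by 0.03 and Tfam, which packages mitochondrial DNA and starts its transcription, by 0.09, and neither passed.

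Of 23 genes of the citrate cycle and pyruvate entry, 7 fell and 2 rose in siLox, beside 13.5% of all genes lower and 11.5% higher. Pdk2 and Pdk1, kinases that switch off pyruvate dehydrogenase, differed most, by -0.80 and -0.65 (adjusted p = 0.0428 and 0.0363, limma). Of 14 carriers and channels, 5 fell and 0 rose in limma (7 and 0 at an unadjusted p under 0.05), beside the same 13.5% and 11.5% of all genes. The dicarboxylate carrier Slc25a10 fell by 0.61, and Slc25a4, an ADP/ATP carrier, by 0.45. Of 6 subunits and partners outside the name rule, 1 fell, the gene listed as 1810037I17Rik, by 0.27.

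Promoters were searched for 3 motifs of factors linked to this pathway, the palindromic NRF1 consensus with 1 free base, ETS factors (CCGGAAGT) and YY1 (AAGATGGCG), on both strands. The windows, from RefSeq (GRCm38.p6), ran from 250 bases before a start to 50 after, and 69 of the 85 genes had 1 or more. Of the 75 windows of these genes, 24% held the NRF1 motif, 6.67% the ETS motif and 12% the YY1 motif, against 4.60%, 3.89% and 1.40% of 32851 windows of all genes. Among the genes with a window, 1 of the 12 that fell in siLox held the NRF1 motif, as did 16 of the 55 that did not pass. The 250 bases before the start are shown for the gene with the largest called fall and a gene that rose, and for an isoform pair of complex IV that differed between slides. Capitals mark a motif, here the ETS match of Uqcr11, and the other promoters hold no match in these bases.

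Uqcr11 (chr10:80406822-80407071, minus strand): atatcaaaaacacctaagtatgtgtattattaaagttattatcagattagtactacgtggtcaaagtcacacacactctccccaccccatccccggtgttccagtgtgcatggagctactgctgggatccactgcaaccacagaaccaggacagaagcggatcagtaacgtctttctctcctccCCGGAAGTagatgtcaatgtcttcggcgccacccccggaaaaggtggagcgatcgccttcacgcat
Atp5l (chr9:44920743-44920992, minus strand): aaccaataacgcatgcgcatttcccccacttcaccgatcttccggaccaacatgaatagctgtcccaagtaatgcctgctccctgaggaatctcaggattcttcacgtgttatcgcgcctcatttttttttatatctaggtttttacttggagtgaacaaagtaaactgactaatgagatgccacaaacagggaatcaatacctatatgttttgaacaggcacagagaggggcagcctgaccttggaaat
Cox7a2 (chr9:79759854-79760103, minus strand): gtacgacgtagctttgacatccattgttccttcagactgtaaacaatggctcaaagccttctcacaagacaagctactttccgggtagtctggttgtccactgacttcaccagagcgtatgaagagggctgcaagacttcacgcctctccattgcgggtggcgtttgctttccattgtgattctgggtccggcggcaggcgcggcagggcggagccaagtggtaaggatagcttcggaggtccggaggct
Cox7a1 (chr7:30183921-30184170, plus strand): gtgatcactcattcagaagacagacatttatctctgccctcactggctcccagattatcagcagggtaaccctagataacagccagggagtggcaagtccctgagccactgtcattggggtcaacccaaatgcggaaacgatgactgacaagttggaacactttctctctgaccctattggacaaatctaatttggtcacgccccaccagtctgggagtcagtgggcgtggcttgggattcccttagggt

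In the comparison of the 2 targeting siRNAs on slide 2, 5 subunit genes were higher in siLoxl1 than in siLoxl2 and 1 was lower. Of all genes, 8.81% were called, 6.1% higher and 2.7% lower, so the 83 subunit genes were called at about the background rate. The sign was positive for 69 of 83, with a median of 0.09 against 0.03 for all genes, and for 24 subunit genes each siLoxl1 array lay above each siLoxl2 array and for 1 below, where 14.7% and 5.62% of all genes did so (20.3% in all). By complex, 4 of 37 genes in complex I and 1 of 8 in complex III were higher, 1 of 16 in complex IV was lower, and 0 of 4 genes in complex II and 0 of 18 in complex V passed in limma (2 and 3 higher at an unadjusted p under 0.05).

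Cox6a2 was the lower gene. It read -0.46, -0.55, -0.37 and -0.41 in siLoxl1 and 0.00, 0.01, 0.07 and 0.07 in siLoxl2. The groups did not overlap, and the difference was -0.48 (SE 0.05, adjusted p = 0.00397, limma), so that siLoxl1 stood at 71.6% of siLoxl2. It kept its call without any 1 array of slide 2 but did not pass in a fit that pooled the spread of all 16 arrays.

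Ndufa4 read 5.86, 5.82, 5.73 and 5.73 in siLoxl1 and 5.50, 5.56, 5.58 and 5.54 in siLoxl2, higher by 0.24 (SE 0.05, adjusted p = 0.0221, limma). Uqcrfs1, the Rieske protein, read 5.23, 5.30, 5.20 and 5.12 against 4.93, 5.04, 4.98 and 4.97, also higher by 0.24 (adjusted p = 0.0284). The accessory complex I genes Ndufb8, Ndufs5 and Ndufb2 were higher by 0.22, 0.20 and 0.20. None of these groups overlapped. Ndufv1 was higher by 0.17 with an adjusted p of 0.0509.

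siLoxl2 array 1 held the lowest value of its group for 68 of the 83 genes, and the median difference without it was 0.06. The count of called genes fell from 6 to 4 without it and to 1 without siLoxl2 array 3 or 4. It was 3 without siLoxl1 array 1 or siLoxl2 array 2, and 2 without siLoxl1 array 2 or 3. With quantile normalization 2 were called, 1 in each direction, and the median was 0.04. Of the 13 mitochondrially encoded genes, ND1 alone passed, lower in siLoxl1 by 0.20 (adjusted p = 0.0356, limma), and the median was -0.04. Of the other lists, 4 of 43 assembly factors (Acad9, Coa6, Ndufaf1 and Ndufaf2, by 0.18 to 0.21), 5 of 24 biogenesis regulators (among them Polg2 by 0.29 and Tfb2m by 0.28), 2 of 23 citrate cycle genes (Pdhb by 0.22 and Dlat by 0.15) and 2 of 14 carriers (Slc25a5 by 0.19 and Mpc1 by 0.15) were higher, and 0 were lower in limma. Of all genes 6.1% were higher and 2.7% lower in this comparison, and the shares of assembly factors and citrate cycle genes were close to that.

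The comparisons of siLoxl1 and siLoxl2 with scr run between slides and share the scr arrays. In siLoxl1, 79 of 83 subunit genes were higher than in scr and 1 was lower, where 65.1% of all genes were called, 43.3% higher and 21.9% lower. In siLoxl2, 78 were higher and 1 was lower, where 64.8% of all genes were called, 41.4% higher and 23.4% lower. In each comparison 78 subunit genes lay above all scr arrays and 1 lay below them, where 39.1% of all genes lay higher and 19.1% lower in siLoxl1 (58.2% in all), and 37.2% and 20.1% in siLoxl2 (57.3% in all). The median difference of the subunit genes was 0.63 and 0.54, against 0.19 and 0.17 for all genes. With quantile normalization these medians were 0.36 and 0.30, against 0.08 and 0.07, and 68 and 66 genes were higher and 5 and 4 lower. Since each group lies on 1 slide, these values describe slide and siRNA together. Mean levels of marker lists of other cell types also differed from scr. The epithelial mean ran from -2.09 to -1.91 in siLoxl1 and from -2.23 to -1.93 in siLoxl2. The mesothelial mean ran from 0.58 to 0.86 and from 0.56 to 0.85, all below the scr ranges given earlier. The markers of a list went different ways. In each comparison 1 of 4 tested epithelial markers was called higher and 2 lower, and 2 of 6 mesothelial markers higher and 4 lower. Krt8 read 0.96 in scr, -3.28 in siLoxl1 and -3.40 in siLoxl2, while Aqp5 read -2.77, 0.77 and 0.73. The mesothelial marker Krt19 read 1.68, 4.01 and 4.07, and Wt1 read 2.45, 0.07 and -0.18. The endothelial level ran from -3.77 to -3.32 in siLoxl1 and from -3.52 to -2.85 in siLoxl2. That list holds Tek, which passed the filter only through siLoxl2 and was above background on 0 scr arrays. It also holds Emcn, above background on 4 scr, 1 siLoxl1 and 0 siLoxl2 arrays, so its mean is not compared with scr. The leukocyte level (0.23 to 0.39 and 0.25 to 0.39) lay within the scr range, and the fibroblast level ran from 5.31 to 6.46 and from 6.31 to 6.42. The 5.31 was siLoxl1 array 4 alone, where the other siLoxl1 arrays read 6.38 to 6.46. Among the fibroblast markers, Fn1 had a mean of 5.56 in siLoxl1, against 8.04 in scr and 8.23 in siLoxl2. That Fn1 mean includes siLoxl1 array 4, and Fn1 did not pass between siLoxl1 and siLoxl2 in limma. It is therefore not read as a fall shared by the siLoxl1 arrays. The part of these lists in the subunit values was not tested.

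By complex, the median difference of siLoxl1 and of siLoxl2 was 0.66 and 0.54 in complex I, 0.62 and 0.53 in complex II, 0.76 and 0.62 in complex III, 0.73 and 0.66 in complex IV and 0.51 and 0.42 in complex V. The genes called the same way ranged widely in size. Among the core genes, Ndufs1 was higher by 0.45 and 0.37, Ndufv1 by 0.61 and 0.44, Sdha by 0.61 and 0.56, and Atp5a1 by 0.63 and 0.54. Atp5b, the partner of Atp5a1 in the catalytic head, differed by 0.08 and -0.01 and did not pass, and Uqcrc1 differed by 0.04 and 0.05 and did not pass. With quantile normalization Uqcrc1 read -0.21 and -0.14 and Atp5b -0.15 in siLoxl1, so their direction depended on the scaling. Uqcrc2, the other core protein of complex III, was lower by -0.18 in siLoxl2 (adjusted p = 0.000835, limma) and differed by -0.08 in siLoxl1 without passing.

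Ndufa4l2 differed most. It read 3.53, 3.73, 3.57 and 3.67 in siLoxl1 and 3.64, 3.95, 3.78 and 3.95 in siLoxl2, beside the scr and siLox values given earlier, none above 1.07. The difference from scr was 3.07 in siLoxl1 (SE 0.35, adjusted p = 2.59e-06, limma) and 3.27 in siLoxl2 (adjusted p = 1.49e-06). Between siLoxl1 and siLoxl2 it was -0.21 and did not pass (95% interval -0.41 to -0.01, adjusted p = 0.15). Its relative Ndufa4 differed from scr by 0.76 and 0.52.

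Cox7a1 (probe at chr7:30970337-30970948, mm9) read -0.85, -1.01, -0.92 and -1.26 in scr and -0.99, -1.08, -1.02 and -0.78 in siLox. On slide 2 it read 1.23, 1.11, 1.21 and 1.11 in siLoxl1 and 1.09, 1.18, 1.18 and 1.24 in siLoxl2. The difference from scr was 2.17 (SE 0.09, adjusted p = 5.59e-11, limma) and 2.18 (adjusted p = 8.51e-11), about 4.5 times the scr level, while siLoxl1 and siLoxl2 differed by -0.01 (95% interval -0.13 to 0.11). Its widely expressed counterpart Cox7a2 differed by 0.87 and 0.69. Of 12 striated muscle markers on the array, 3 were above background on all scr arrays and 9 on all siLoxl1 and siLoxl2 arrays. Myh6, Myh1, Actc1, Tnni3 and Myl2 passed the filter only through slide 2, so no mean over the list is given. Among those above background on all scr arrays, Acta1 read 4.68 in scr, 6.43 in siLoxl1 and 6.46 in siLoxl2. Tnnt2 read 1.06, -0.71 and -0.75, and Tnnc1 -1.95, -1.70 and -1.80. The part of these markers in the Cox7a1 values was not tested.

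**Figure D4:**
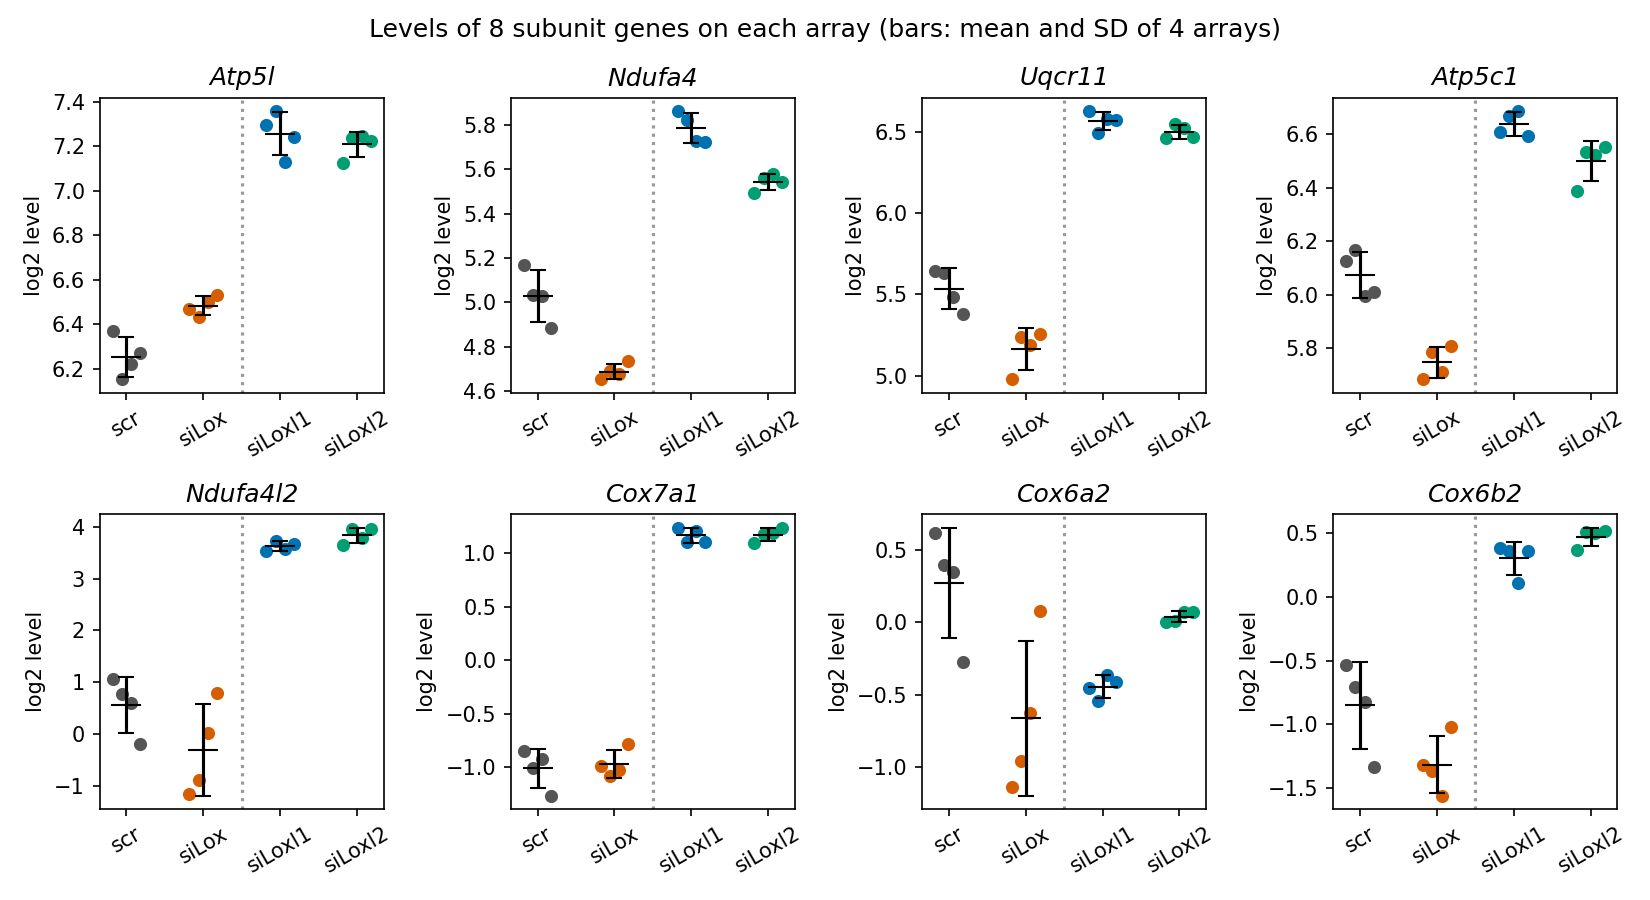
Log2 level (y axis) of 8 subunit genes on each array of the 4 groups (x axis); points are arrays, bars show mean and SD of 4 arrays, and the dotted line parts slide 1 from slide 2. Atp5l is higher in siLox than in scr, Ndufa4l2 and Cox7a1 are higher on slide 2, and Cox6a2 is lowest in siLox and siLoxl1.

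The other isoforms differed less than Cox7a1, and Cox6a2 had the opposite sign. Cox6b2, the testis form of subunit 6b, was higher by 1.16 and 1.33, and Cox4i2 by 0.42 and 0.54. Cox6a2 was lower than scr by -0.72 in siLoxl1 (adjusted p = 0.0108, limma) and differed by -0.23 in siLoxl2 (adjusted p = 0.367). Its counterpart Cox6a1 was higher by 0.45 and 0.35. The fitted difference of Cox8b was 1.26 and 1.27, but since no scr array was above background and its level there was under the detection floor, no fold is given, and with another background correction (normexp) the sign turned, to -0.44 and -0.42. The widely expressed Cox8a was higher by 0.70 and 0.63.

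The 3 genes for the c-ring protein of complex V, which differ mainly in their import sequence, differed in size. Atp5g1 was higher by 0.28 and 0.34, Atp5g2 by 0.40 and 0.30, and Atp5g3 by 0.74 and 0.61. In siLoxl1 the Atp5g1 value turned to -0.050 with quantile normalization. Of the 13 mitochondrially encoded genes, 11 were higher in siLoxl1 and 11 in siLoxl2, with medians of 0.70 and 0.83. Among all genes 43.3% and 41.4% were higher, with medians of 0.19 and 0.17. ND6 was lower in siLoxl1 by -0.38.

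Tested probe by probe, 7 of 121 subunit probes were higher and 15 lower in siLox than in scr, where 21.1% of all probes were called, 9.67% higher and 11.5% lower. Between siLoxl1 and siLoxl2, 5 were higher and 1 lower, where 6.73% of all probes were called, 4.41% higher and 2.32% lower. Against scr, 111 were higher and 1 lower in siLoxl1, where 62.5% of all probes were called (40.5% higher and 22% lower), and 111 were higher and 2 lower in siLoxl2, where 62.3% were called (38.8% and 23.5%). The probe counts thus stood to their background much as the gene counts did.

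Genes with several probes were checked for agreement. Among 28 genes with over 1 detected probe, the probes' differences of siLox from scr lay a median of 0.08 apart, and 2 genes had probes over 0.3 apart. Between siLoxl1 and siLoxl2 the median was 0.05, with 0 genes over 0.3 apart. Against scr, probes agreed less: the median was 0.25 in siLoxl1 and 0.20 in siLoxl2, with 8 and 6 genes over 0.3 apart. Ndufa3 had probes called in opposite directions: the brighter, at chr7:3571695-3571754 (mm9), fell by 0.22 (adjusted p = 0.0433 over probes, limma), and the other, at chr7:3569447-3569506, rose by 0.71 (adjusted p = 0.0306). In siLoxl2 against scr Ndufa3 was also called both ways. There the brighter probe differed by 0.54 and the second by -0.40 (adjusted p = 1.55e-06 and 0.0183 over probes, limma). The second probe read -0.85, -0.42, -0.62 and -0.01 in scr and 0.39, 0.22, 0.23 and 0.09 in siLox, and it is listed for the Ensembl transcript ENSMUST00000150497. For Ndufv3 the 3 probes gave 1.26, 0.46 and -0.02 in siLoxl1 against scr, so the value of that gene depends on its probe. The second Atp5g1 probe gave 0.06 in siLox against scr and -0.07 in siLoxl1 against scr, so the called differences of Atp5g1 rest on the brighter probe.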

How the data were processed

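Total RNA of 16 samples (4 groups of 4) was labelled with Cy3 and hybridised to 1 one-colour array each, per the labels. Per the file headers and the submitters' processing notes, spots were read with Agilent Feature Extraction 10.7.3.1, which gives background-corrected intensity values per spot. The other columns are deposited flags of 0 or 1 per spot. The authors' value table holds log2 values, quantile normalized between arrays as its sorted columns show, and served as an alternative. No spot was saturated. The values of 1 gene of the set are not reported here, though counts over the set include it.

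Here, spots marked as outliers were removed, repeat spots were combined by their mean, and each array's 75th percentile over non-control probes was subtracted on the log2 scale. A probe was kept when all 4 arrays of any group read it well above background. Each gene was read from its brightest probe (22644 genes). Genes were tested with limma 3.58.1 in R 4.3.3 (lmFit, eBayes), with Benjamini-Hochberg adjustment over all genes and a threshold of 0.05. Comparisons within a slide used its 8 arrays, and comparisons between slides all 16. An exact two-sided permutation test cannot go below 0.0286 with 4 against 4. Probe positions are those of the files (mm9), and RefSeq (GRCm38.p6) served for names and promoters. The fit was tested on simulated data with the spread of all genes tested, which was wider than that of the subunit genes. For siLox against scr it recovered 6% of differences of 0.25 and 24% of 0.5, and for siLoxl1 against siLoxl2 28% and 70%. Differences of this size can thus be missed.

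The members, lists and tests were chosen with earlier results of these data known. The text names in each comparison 24 core and isoform genes, up to 4 called genes at each end, genes with probes called in opposite directions and up to 2 called genes per list; further genes of short counts, and Nrf1 and Tfam, were named after their values were seen. Alternatives covered the background correction, the scaling, the value table, the filter on dim probes, the probe rule, the arrays in the fit, a replicate block and each array left out. In siLox against scr only, array 4 of both groups was also left out together. The number of arrays limits the precision.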

Additional observations from a re-analysis of the deposited data

Results flagged for a closer look

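Single arrays that stood far from the other 3 of their group were found in 15 of 184 groups of values examined, where chance flags about 1 in 20. In siLoxl2, array 1 was the low one for Atp5g1 (6.58, others 6.74 to 6.75), Atp5l (7.13, others 7.23 to 7.25), Cox5a (7.28, others 7.38 to 7.40), Cox6b2 (0.37, others 0.50 to 0.52) and Cox8b (-6.02, others -5.32 to -5.26, near background). In siLox, array 1 was low for Cox8a (6.81, others 6.90 to 6.91) and Sdha (4.21, others 4.30 to 4.32). In scr, array 2 was high for Atp5b (8.12, others 7.91 to 7.94) and array 4 was low for ATP8 (4.18, others 4.54 to 4.59).

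In siLoxl1, array 2 was high for Atp5c1-ps (4.30, others 4.21 to 4.22) and low for ND6 (2.05, others 2.29 to 2.33). Array 4 of siLoxl1 was low for Cox4i1 (7.41, others 7.47 to 7.48), array 3 for Cox6b2 (0.11, others 0.36 to 0.39) and array 1 for CYTB (7.63, others 7.71 to 7.72). In siLoxl2, array 4 was low for ND4 (6.80, others 6.89 to 6.90). Most of these gaps were about 0.1 in log2.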

How the results depend on the processing

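Of 1725 values recomputed under the alternatives, 1567 kept their side of the threshold and, where called, their direction, 90 lost a call, 22 gained one, 11 turned sign with a call on one side, and 35 turned sign with a call on neither. In siLox against scr, the 2 genes that rose became 1 with the median as scale, 1 with no filter on dim probes, 1 without array 4 of both groups and 0 with a replicate block, and 1 to 2 with single arrays left out. The 13 that fell became 4 with no filter, 34 in the fit of all 16 arrays and 0 with the block, and 2 to 18 with single arrays left out. The 11 mitochondrially encoded genes that fell became 0 with the block and 8 to 11 with single arrays left out. In siLoxl1 against siLoxl2, the 5 higher genes became 8 with normexp, 1 with quantile normalization, 1 in the authors' value table, 1 with no filter and 0 with the block, and 0 to 5 with single arrays left out, and the 1 lower gene became 0 in the fit of all 16 arrays. Against scr, the 1 lower gene became 2 with normexp, 5 with quantile normalization, 5 in the value table and 2 with no filter in siLoxl1 (1 to 2 with single arrays left out), and 2, 4, 4 and 2 in siLoxl2. The values that turned with quantile normalization and in the value table were, in siLoxl1, Uqcrc1 (-0.21 and -0.21), Atp5b (-0.15 and -0.15) and Atp5g1 (-0.050 and -0.052), and in siLoxl2 Uqcrc1 (-0.14 and -0.14). With normexp, Cox8b turned to -0.44 in siLoxl1 and -0.42 in siLoxl2, and Atp5b read 0.11 in siLoxl2. The cause was not tested.

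With normexp the median over all genes was -0.07 in siLoxl1 and -0.09 in siLoxl2 against scr, where the subunit genes stood at 0.71 and 0.60. Same-numbered arrays did not deviate together throughout: the correlation of their deviations ran from -0.19 to -0.00202 in siLox against scr and from 0.04 to 0.22 in siLoxl1 against siLoxl2. The replicate block called 0 of the 83 genes in the first comparison (limma, with 2 higher and 13 lower at an unadjusted p under 0.05) and 1, Cox6a2, in the second. Slide as a block was not run, since each comparison lies within 1 slide or runs between slides. Array signal over background limits Cox8b, and Cox7b2 and Cox8c gave no value.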
